A study of Homo sapiens with 2 samples.

Results

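GRB10 and 9 other imprinted genes were examined in cisplatin treated breast cancer cells labelled as WT or as FZR1 knockout (ko). The 10 genes are GRB10, H19, IGF2, MEST, PEG3, PEG10, PHLDA2, MEG3, SNRPN and DLK1. They were picked by name as known imprinted genes and matched by Entrez gene ID, and all 10 had a value among the 23033 genes of the table. GRB10 was picked because it was near 0 in control and present in FZR1 ko in these same 2 libraries, so its difference is a description and not a test. RNAseq was performed on a control library, whose genotype label is WT, and on a FZR1 ko library, both from cells with the label T-47D (a luminal line of breast cancer), and both treated with 2 µg/ml cisplatin. FZR1 is a co-activator of the APC/C ubiquitin ligase, and the ko line was made with lentiviral CRISPR/Cas9 and grown from single cells, so clonal differences and loss of FZR1 cannot be told apart. There was 1 library per condition, so no value has a replicate error, no difference has a replicate check and no p-value is given.

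Imprinted genes are expressed mainly from the maternal or the paternal copy, according to DNA methylation that was laid down in the egg or sperm at control regions and kept through cell division. Many act on growth of the fetus and placenta, and most lie in clusters that share a control region. The deposited values add up reads of both copies, so imprinting itself was not measured here, only the level of each RNA.

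Levels are FPKM, fragments scaled by the length of the transcript and the mapped fragments of the library, so levels of different genes can be compared per length. Read numbers cannot be had from FPKM, and the depth is unknown. Differences are given as the log2 ratio, FZR1 ko over control after 1 FPKM was added to each value, for the 13554 genes that reached 1 FPKM in at least 1 library. In these bulk samples fewer cells that express a gene and less RNA per cell cannot be told apart. This scale understates the change of low genes. Over all 13554 genes the log2 ratio had a median of -0.0048. The targeted gene, FZR1, had 12.3 FPKM in control against 10.1 FPKM in FZR1 ko, and since an indel need not remove the mRNA, this does not check the labels. Of 9 luminal markers only 4 reached 1 FPKM. ESR1, the estrogen receptor, PGR, the progesterone receptor, GATA3, E-cadherin (CDH1) and KRT19 were between 0 and 0.69 FPKM in both libraries, which goes against the label T-47D, while the other 4 were expressed. KRT8, at 829 and 998 FPKM, KRT18 and XBP1, at 93.4 and 72.6 FPKM, were high, and FOXA1 had 5.07 and 4.65 FPKM. Of 6 mesenchymal markers 5 reached 1 FPKM, among them vimentin (VIM) at 315 and 295 FPKM, and their median log2 ratio was -0.09, with 2 above 0 and 3 below. CDH2 (N-cadherin), at 2.97 and 15.3 FPKM (2.04), was the only one past 2-fold, while ZEB1 was at 0.51, FN1 at -0.09 and SNAI2 at -0.73. SPARC was at or near 0 in both libraries. The part of these differences in the levels of the imprinted genes was not tested.

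The 10 genes fell into 3 groups by level. PHLDA2 and H19 were among the most abundant RNAs of the cells, MEST, PEG10 and SNRPN were at middle levels, and IGF2, MEG3, PEG3 and DLK1 were at or near 0 in both libraries, while GRB10 stood at the low level in control only. Of the 6 genes that reached 1 FPKM, GRB10 and MEST were at least 2-fold higher in FZR1 ko, PHLDA2 was at least 2-fold lower, and H19, PEG10 and SNRPN differed less than 2-fold. Among all 13554 genes, 13.5% differed at least 2-fold, 6.78% higher and 6.72% lower. GRB10 was chosen on this contrast, so nothing is read from the count that includes it.

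GRB10 (Entrez gene 2887) encodes an adaptor with an SH2 domain that binds activated insulin and IGF1 receptors and restrains their signal. It lies on the minus strand of chromosome 7 of hg38, from 50590063 to 50793462, with 19 exons in its main transcript in GENCODE 44. It had 0.07 FPKM in control against 5.52 FPKM in FZR1 ko. In control 23.2% of all genes had a lower value than GRB10, and in FZR1 ko 62.3% did, so it moved from among the unexpressed genes to the low middle of the expressed ones. The log2 ratio, the value GRB10 was chosen on, was 2.61, the 3rd largest of the 11550 protein-coding genes compared. The place depends on the pseudocount, and with 5 FPKM added GRB10 was at 1.05, the 120th. The value of 0.07 FPKM may rest on very few reads, so the ratio of the FPKM values, 78.9, has no known precision.

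Among protein-coding genes, 20 had at most 0.1 FPKM in control and at least 1 FPKM in FZR1 ko, and 27 showed the opposite pattern. Only CLGN, a chaperone of the endoplasmic reticulum best known from testis, was higher than GRB10 in FZR1 ko among the 20, whose median was 1.68 FPKM. CLGN was also the gene nearest to GRB10 in level over the 2 libraries, with 0.09 FPKM in control against 5.54 FPKM in FZR1 ko, a distance of 0.027 on the log2(FPKM + 1) scale. The next were SNORD103A and SNORD103B, which each had 5 FPKM in FZR1 ko and were listed at 0 in control. They are near-identical copies with equal values, so each is uncertain. DIO2, which activates thyroid hormone, had 0.22 and 5.54 FPKM. LINC03026, a noncoding RNA, had 0.23 and 6.07 FPKM. These 5 genes were picked by distance over 2 libraries only.

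GRB10 has several start sites, and the gene level value does not say which was used in FZR1 ko. RefSeq (GRCh38.p14) lists 5 promoter windows for it. The bases before 3 of these starts are printed because they differ widely in CpG, the dinucleotide that carries DNA methylation. Sequences are on the minus strand, 5′ to 3′, with CG in capitals and bases in GENCODE 44 exons of GRB10 left out. They are the most upstream start (chr7:50793463-50793703), the start of the main transcript (chr7:50782911-50783146) and the most downstream start (chr7:50705324-50705551).
GRB10 most upstream start: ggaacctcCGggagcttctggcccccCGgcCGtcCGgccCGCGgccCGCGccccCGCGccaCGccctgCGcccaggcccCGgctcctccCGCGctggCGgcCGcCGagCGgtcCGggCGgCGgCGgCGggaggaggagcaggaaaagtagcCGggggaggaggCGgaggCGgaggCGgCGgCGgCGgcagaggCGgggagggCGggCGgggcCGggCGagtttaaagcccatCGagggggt
GRB10 main transcript start: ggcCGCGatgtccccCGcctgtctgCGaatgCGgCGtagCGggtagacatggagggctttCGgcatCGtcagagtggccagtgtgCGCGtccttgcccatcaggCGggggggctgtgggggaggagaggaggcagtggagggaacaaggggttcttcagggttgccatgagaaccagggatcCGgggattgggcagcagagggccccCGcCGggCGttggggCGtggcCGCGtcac
GRB10 most downstream start: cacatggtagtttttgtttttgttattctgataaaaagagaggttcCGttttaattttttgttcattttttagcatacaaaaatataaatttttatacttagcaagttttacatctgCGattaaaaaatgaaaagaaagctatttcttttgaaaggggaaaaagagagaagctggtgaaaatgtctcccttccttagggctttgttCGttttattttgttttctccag
In the 250 bases before each start the counts of CG were 37, 19 and 3. Of 35116 RefSeq windows 4.0% held at least as many as the first, 34.6% as the second and 77.1% as the third, and the median window held 11. TATAAA, searched on both strands, was found only in the third of these windows and occurs in 10.7% of all windows. DNA methylation was not measured in these files.

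Around GRB10 little else was expressed. Within 1 Mb of its ends 7 other genes had a value, and 2 of them reached 1 FPKM. COBL, which nucleates actin filaments, had 2.18 FPKM in control against 10.1 FPKM in FZR1 ko, with a log2 ratio of 1.81. FIGNL1, a AAA ATPase of homologous recombination, had 9.72 and 7.06 FPKM (-0.41). DDC, which lies next to GRB10 and encodes DOPA decarboxylase, was listed at 0 in control and had 0.03 FPKM in FZR1 ko. IKZF1, a lymphoid transcription factor, was listed at 0 in both. Of the 2 expressed neighbours COBL was thus higher in FZR1 ko and FIGNL1 was not. DDC and IKZF1, at or near 0 in both libraries, say nothing about a shared difference.

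MEST (Entrez gene 4232), a gene of the alpha/beta hydrolase fold family expressed from the paternal copy, lies on the plus strand of chromosome 7 from 130486171 to 130506465, with 12 exons in its main transcript. It had 13.2 FPKM in control against 29.5 FPKM in FZR1 ko, with a ratio of 2.23 and a log2 ratio of 1.10, just past 2-fold. Its main start lies in a window with 20 CG in 250 bases, and 32.4% of all windows held at least as many. The 250 bases before this start (chr7:130491835-130492084, plus strand, CG in capitals) are printed as a further promoter of an imprinted gene with a higher level in FZR1 ko.
MEST main transcript start: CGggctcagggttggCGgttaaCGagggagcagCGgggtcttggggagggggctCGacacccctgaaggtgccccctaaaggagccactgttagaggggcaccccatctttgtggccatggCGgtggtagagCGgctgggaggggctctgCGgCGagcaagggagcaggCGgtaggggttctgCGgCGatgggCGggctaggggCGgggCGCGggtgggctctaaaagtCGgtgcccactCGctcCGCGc
COPG2, a coatomer subunit gene that overlaps MEST on the opposite strand, had 1.16 FPKM in control against 4.77 FPKM in FZR1 ko (log2 ratio 1.42). CPA4, a carboxypeptidase gene nearby, had 9.06 and 29.9 FPKM (1.62), and CEP41, a centrosomal gene, 2.03 and 2.87 FPKM (0.35). MESTIT1, a noncoding RNA opposite to MEST, had 0.67 FPKM in control against 0.12 FPKM in FZR1 ko. Within 1 Mb of MEST 15 other genes reached 1 FPKM, of which 4 were at least 2-fold higher in FZR1 ko and 1 was at least 2-fold lower, MKLN1-AS (-1.13), against 6.78% and 6.72% of all genes. The sources used here do not say that the counting used strand, so reads of MEST, MESTIT1 and COPG2 where they overlap cannot be told apart.

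PEG10 (Entrez gene 23089), derived from a retrotransposon and needed for the placenta, lies on the plus strand of chromosome 7 from 94656325 to 94669695. It had 19.3 FPKM in control against 34.5 FPKM in FZR1 ko, with a log2 ratio of 0.80, which is under 2-fold. SGCE, a sarcoglycan gene that starts beside PEG10 on the opposite strand and is imprinted with it, had 12.6 and 22.5 FPKM (0.79). PEG10 and SGCE differed by nearly the same factor, and their summed level went from 32.0 to 57.0 FPKM, a ratio of 1.78. The other neighbours had other values. CASD1, a sialic acid acetyltransferase gene, had 2.67 and 3.51 FPKM (0.30), PON2, a paraoxonase gene, 87.6 and 64.0 FPKM (-0.45) and TFPI2, a protease inhibitor gene, 42.7 and 13.3 FPKM (-1.62). PON1, PON3 and CALCR were listed at 0 in both libraries.

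SNRPN (Entrez gene 6638), a spliceosome protein gene of the Prader-Willi region, lies on the plus strand of chromosome 15 from 24823637 to 24978723. It had 16.2 FPKM in control against 21.7 FPKM in FZR1 ko, with a log2 ratio of 0.40. SNURF, which is encoded on the same transcripts, had 19.9 and 26.9 FPKM (0.42). Reads of SNRPN and SNURF can be split between them, so their sum is given as well. It was 36.1 FPKM in control against 48.6 FPKM in FZR1 ko, with a ratio of 1.35. UBE3A, the ubiquitin ligase gene of the Angelman syndrome, had 10.2 and 15.1 FPKM (0.52), and MKRN3, an intronless gene linked to the timing of puberty, 8.88 and 5.64 FPKM (-0.57). IPW, a noncoding RNA downstream of SNRPN, had 0.29 FPKM in control against 1.68 FPKM in FZR1 ko (1.05), both close to the limit of 1 FPKM. PWAR5 had 1.33 and 0.49 FPKM (-0.65) and PWARSN 1.27 and 1.59 FPKM (0.19), which are noncoding RNAs of the same region. MAGEL2 and ATP10A were listed at 0 in both.

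PHLDA2 (Entrez gene 7262) encodes a small protein with a pleckstrin homology domain that limits growth of the placenta and is expressed from the maternal copy. It lies on the minus strand of chromosome 11 from 2928273 to 2929420. It had 569 FPKM in control, the 128th highest of all 23033 genes, and 176 FPKM in FZR1 ko, the 405th. The ratio of control to FZR1 ko was 3.23 and the log2 ratio was -1.69, the 119th lowest of the 11550 protein-coding genes. Its neighbours in the domain had other values. SLC67A1, also known as SLC22A18 and the nearest gene, had 24.5 and 26.7 FPKM (0.12), and CDKN1C, the CDK inhibitor p57, 83.2 and 63.3 FPKM (-0.39). NAP1L4, a histone chaperone gene, had 108 and 147 FPKM (0.45) and OSBPL5, a lipid transfer gene, 12.7 and 16.7 FPKM (0.37). TSSC4 had 47.7 and 29.0 FPKM (-0.70), CD81, a tetraspanin gene, 108 and 99.0 FPKM (-0.13), and the antisense RNA SLC67A1-AS 2.04 and 3.40 FPKM (0.53). KCNQ1OT1, the noncoding RNA that runs antisense within KCNQ1 from the control region, had 1.19 and 0.87 FPKM (-0.23). KCNQ1, a potassium channel gene, had 1.65 FPKM in control against 6.42 FPKM in FZR1 ko (1.49). Of the 9 neighbours in this domain that reached 1 FPKM, KCNQ1 was past 2-fold, in the direction opposite to PHLDA2, a share of 11.1% that is near the 13.5% of all genes.

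H19 (Entrez gene 283120), a maternally expressed noncoding RNA that hosts miR-675, lies on the minus strand of chromosome 11 from 1995166 to 2004552. It had 287 FPKM in control, the 247th highest value, and 242 FPKM in FZR1 ko, the 270th, with a log2 ratio of -0.25. H19 thus kept nearly the same place among all genes. IGF2 (Entrez gene 3481), the paternally expressed growth factor gene of the same control region, had 0.12 FPKM in control against 0.04 FPKM in FZR1 ko, so a high H19 stood beside an IGF2 near 0 in both libraries. INS-IGF2, which shares exons with IGF2, was listed at 0 in both. MRPL23, a mitochondrial ribosomal protein gene whose RefSeq span overlaps H19, had 17.0 and 25.8 FPKM (0.57), and reads in the overlap cannot be told apart.

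MEG3, DLK1 and PEG3 were silent or close to it. MEG3 (Entrez gene 55384), a maternally expressed noncoding RNA of chromosome 14, had 0.15 FPKM in control against 0.08 FPKM in FZR1 ko. DLK1 (Entrez gene 8788), a Notch-like growth regulator gene of the same cluster, was listed at 0 in both, as were RTL1, MEG8 and MEG9. DIO3, at the far end of this cluster, inactivates thyroid hormone and was expressed in control, with 7.13 FPKM in control against 1.35 FPKM in FZR1 ko, with a log2 ratio of -1.79. PEG3 (Entrez gene 5178), a paternally expressed zinc finger gene of chromosome 19, and ZIM2, which shares its first exons, were listed at 0 in both. ZNF264, a zinc finger gene 351 kb from PEG3, had 3.58 and 1.87 FPKM (-0.67). At these levels a difference between the libraries was not detectable for IGF2, MEG3, PEG3 or DLK1.

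**Figure D1:**
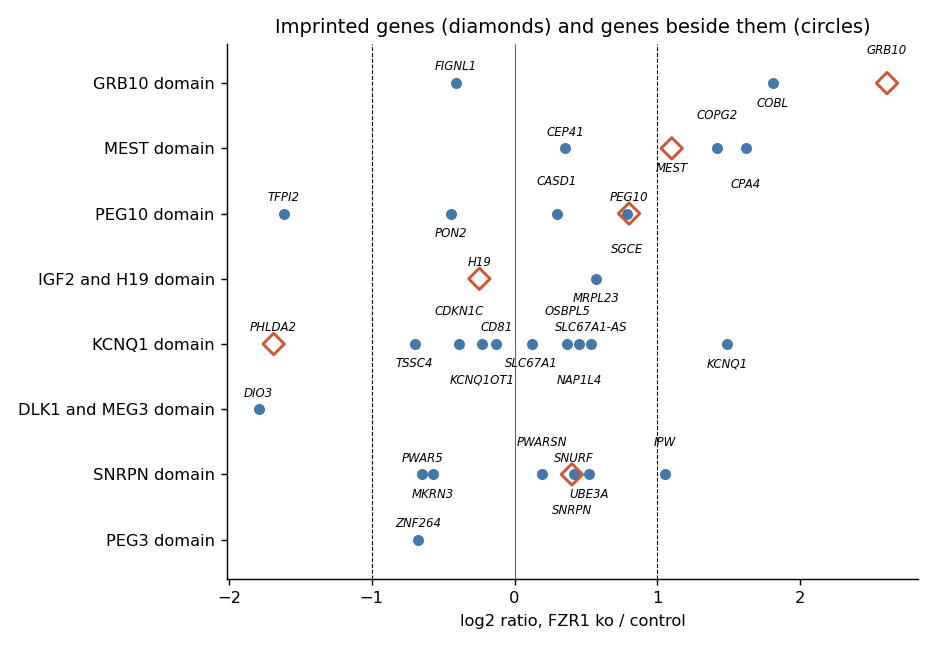
Log2 ratio of the imprinted genes (open orange diamonds) and of listed genes beside them (blue circles) by imprinted domain, for genes that reached 1 FPKM in either library. Dashed lines mark 2-fold. PEG10 and SGCE coincide, as do SNRPN and SNURF, and PHLDA2 lies apart from the rest of its domain.

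Neighbours and other imprinted genes were counted from a list of 90 genes, of which 43 reached 1 FPKM. Of these 43 genes 6 were at least 2-fold higher in FZR1 ko (14%), against 6.78% of all genes, and 2 were at least 2-fold lower (4.65%), against 6.72%. Their median log2 ratio was 0.19. The 6 were COBL, COPG2, CPA4, KCNQ1, IPW and IGF2R, and the 2 were TFPI2 and DIO3. Several are neighbours and not imprinted themselves. Counted over all genes within 1 Mb that reached 1 FPKM, the window of PEG10 held 7 genes, with 0 at least 2-fold higher and 1 at least 2-fold lower, and that of PEG3 29, with 1 higher and 2 lower. That of H19 held 21, with 1 higher and 2 lower, that of PHLDA2 19, with 2 higher and 0 lower, and that of MEG3 11, with 2 higher and 1 lower. The 2 lower at H19 were PHLDA2, itself one of the imprinted genes examined, and the microRNA MIR6744, with 1.98 FPKM in control and 0 in FZR1 ko. Beside SNRPN 7 of 14 were higher and 0 lower. Of the 7 all but IPW are small RNA genes, mostly near-identical SNORD116 copies. All 7 were under 1 FPKM in control, so they were compared only through their level in FZR1 ko. A gene at 0 in control that reaches 1 FPKM in FZR1 ko is higher by construction, so nothing is read from this count. The windows of MEG3 and DLK1 overlap, as do those of H19, IGF2 and PHLDA2, and KCNQ1 is counted at each of the latter. Of the 16 genes listed as imprinted outside these domains only IGF2R passed 2-fold, and its imprinting is best known from the mouse. GNAS-AS1, an antisense RNA, had 0.21 and 1.38 FPKM, a ratio of 6.57 that falls just under 2-fold once 1 FPKM is added (0.98). ZNF597 went the other way, with 3.55 and 1.72 FPKM, and was also under 2-fold on this scale (-0.74). GNAS, the stimulatory G protein alpha gene, had 1326 and 1030 FPKM (-0.36), BLCAP 60.2 and 59.7 FPKM (-0.01), PLAGL1, a zinc finger gene of transient neonatal diabetes, 41.9 and 34.5 FPKM (-0.27), NAA60 32.9 and 22.6 FPKM (-0.52), ZNF331 10.9 and 11.6 FPKM (0.08), and the tumor suppressor RB1 5.81 and 11.6 FPKM (0.88).

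GRB10 acts on insulin and IGF signalling, so 50 other genes of this pathway were compared. Of the 41 that reached 1 FPKM, 6 were at least 2-fold higher in FZR1 ko (14.6%, against 6.78% of all genes), 3 were at least 2-fold lower (7.32%, against 6.72%) and 32 differed less. The median log2 ratio was 0.24. With a pseudocount of 5 FPKM 0 were higher and 2 lower, and with 0.1 FPKM 10 were higher and 3 lower. The receptors that GRB10 binds were both higher, and both genes are long. IGF1R spans 316 kb of the genome and INSR 182 kb. Protein-coding genes over 300 kb had a median log2 ratio of 0.80 and those from 100 to 300 kb 0.63. The part of span here was not tested. IGF1R had 0.99 FPKM in control against 4.75 FPKM in FZR1 ko (1.53), and INSR, the insulin receptor, 1.18 and 3.30 FPKM (0.98), a ratio of 2.80 that falls just under 2-fold once 1 FPKM is added. IGF2R, whose product clears IGF2, had 5.27 and 11.8 FPKM (1.03).

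The relatives of GRB10 did not follow it. GRB7 had 8.78 FPKM in control against 3.79 FPKM in FZR1 ko (-1.03), and GRB14 was listed at 0 in both. In control GRB7 was thus the only one of the 3 above 1 FPKM, and in FZR1 ko GRB10 stood above GRB7. The substrates of the receptors differed little, with IRS1 at 3.45 and 4.25 FPKM (0.24) and IRS2 at 20.9 and 21.3 FPKM (0.03). NEDD4, a ubiquitin ligase that binds GRB10, had 6.34 and 4.30 FPKM (-0.47), and GIGYF1 and GIGYF2, named for binding GRB10, had log2 ratios of -0.18 and 0.45. Further down, RPTOR, the scaffold of mTORC1, had 2.02 and 7.43 FPKM (1.48) and PIK3CB, a PI3 kinase catalytic subunit, 1.22 and 3.88 FPKM (1.14). Of the 13 kinase genes and subunits listed that reached 1 FPKM these were the 2 past 2-fold, and 7 were above 0 and 6 below, such as PDPK1 at -0.43 and AKT1 at -0.20. SH2B2, a receptor adaptor, had 1.28 and 3.92 FPKM (1.11), and IGF2BP2, which binds IGF2 mRNA, 1.14 and 3.85 FPKM (1.18). Lower in FZR1 ko were SOCS1, a feedback inhibitor of cytokine and insulin signals, with 17.3 and 3.15 FPKM (-2.14), and IGFBP3, which binds IGF in the medium, with 40.5 and 16.4 FPKM (-1.26).

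The genes at least 2-fold higher in these lists were mostly long in the genome and those lower were short, a feature seen after the values. Of the 11 different genes higher, 8 span over 100 kb, among them COBL (301 kb), KCNQ1 (404 kb), IGF1R (316 kb) and RPTOR (422 kb), and all 5 that were lower span under 10 kb. Of the 67 genes within 2-fold, 17 span over 100 kb. The same held over all 11550 protein-coding genes. The median log2 ratio was -0.21 for the 2566 genes up to 10 kb, -0.16 for those from 10 to 30 kb, 0.13 from 30 to 100 kb, 0.63 for the 1527 genes from 100 to 300 kb and 0.80 for the 209 genes over 300 kb. At least 2-fold higher were 2.1% of the genes up to 10 kb and 34.4% of those over 300 kb, and at least 2-fold lower were 12.0% and 0.957%. Across these genes Spearman's rho of the log2 ratio with the span was 0.45. With the length of the main transcript it was 0.18, over the 11454 genes that had one. Both are over the same pair of libraries. Among genes with a transcript at or under the median length, 26.1% of those spanning over 100 kb were at least 2-fold higher, against 23.7% among genes with longer transcripts. The span groups also differed in level. The median in control was 23.2 FPKM for genes up to 10 kb, 3.69 FPKM from 100 to 300 kb and 1.42 FPKM over 300 kb. The parts of gene span and of level in the differences of the imprinted genes were not tested.

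Set beside genes of like span, the imprinted genes took different places. GRB10 spans 203 kb, and its log2 ratio, on which it was chosen, stood 1st of the 1527 protein-coding genes from 100 to 300 kb with 1 FPKM added and 54th with 5 FPKM added. MEST spans 20.3 kb, and only 57 of 3508 genes from 10 to 30 kb, itself included, had a log2 ratio as high. PEG10 spans 13.4 kb, and 155 of the same 3508 had one as high, so both were higher in FZR1 ko where the median gene of this span was lower. SNRPN, with a RefSeq span of 155 kb that includes distant upstream starts, was below the median of its span, at 0.40 against 0.63. PHLDA2 spans 1.15 kb, and 80 of 2566 genes up to 10 kb, itself included, had a log2 ratio as low. H19, a noncoding RNA, was at -0.25 close to the median of protein-coding genes up to 10 kb, -0.21.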

How the data were processed

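RNAseq libraries of control and FZR1 ko cells, both with cisplatin, were compared, 1 per condition. Reads were mapped by the authors to hg38 transcripts with Bowtie2, RSEM then gave gene levels, and the deposited values are FPKM by Entrez gene ID with 2 decimals. The submitters' processing notes also name Trimmomatic 0.36, HISAT2 2.1.0 and Bowtie2 2.2.5, while the methods give another Bowtie2 version. The annotation version, strand setting and depth are not given in the sources used here. Of 24663 rows, 1630 had no value, and 23033 genes were used. Of these IDs 22925 (99.5%) matched a RefSeq symbol of GRCh38.p14, and 4 older symbols of the lists were matched through RefSeq synonyms.

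After 1 FPKM was added, the log2 ratio of FZR1 ko to control was taken for genes that reached 1 FPKM in either library, and a gene counted as past 2-fold from 1 upwards or from -1 downwards. Without replicates no test was run. Gene positions, exons and transcript lengths are from GENCODE 44, gene spans and promoter windows from RefSeq. Domain neighbours, imprinted genes, markers and pathway genes were listed from general knowledge. The genes, lists and naming rule were chosen with earlier results of these data known. Every imprinted gene was named, with its neighbours that reached 1 FPKM, low neighbours where needed for a locus, list genes past 2-fold, the receptors, GRB7 family, substrates and partners of GRB10, up to 6 abundant genes of the other lists and the 5 genes nearest to GRB10. RB1, GNAS-AS1, ZNF597, MIR6744, PDPK1, AKT1, MKLN1-AS, DNMT3A, DNMT3B, ZNF445, ZFP57 and the snoRNAs of the SNRPN region were added with their values known. The ratio and counts were tested on simulated data. Python 3.11.15, numpy 2.4.6, pandas 2.3.3 and matplotlib 3.10.9 were used.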

Additional observations from a re-analysis of the deposited data

How the results depend on the processing

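The settings tried were pseudocounts of 0.1 and 5 FPKM, all genes without a filter, at least 1 FPKM in both libraries, centring on the median, rescaling to the same sum and a 4-fold threshold. Protein-coding genes only, and grouping by span, were chosen after seeing the data. No paired analysis was possible because control and FZR1 ko have 1 library each, so nothing was tested, and for the same reason no library was left out. The log2 ratio of GRB10 was 5.05 with a pseudocount of 0.1 FPKM and 1.05 with 5 FPKM, against 2.61, by the construction of the scale for a gene near 0. The 3 imprinted genes past 2-fold became 1, GRB10, at 4-fold. The 1830 genes past 2-fold became 2818 and 453 with pseudocounts of 0.1 and 5 FPKM and 150 at 4-fold. The 8 neighbours and other imprinted genes (6 higher, 2 lower) became 3 with 5 FPKM (2 higher, 1 lower) and 0 at 4-fold. The 9 insulin and IGF genes (6 higher, 3 lower) became 2 with 5 FPKM, both lower, and 1 at 4-fold, also lower. The other alternatives kept each total within 1.5 times, but with 0.1 FPKM the insulin and IGF genes became 10 higher and 3 lower and the neighbours and other imprinted genes 7 higher and 4 lower. With at least 1 FPKM in both libraries GRB10, IPW and IGF1R were not compared, and 2 of 5 imprinted genes were past 2-fold. PEG3 and DLK1, at 0 in both libraries, have no direction. The other 7 imprinted genes beside GRB10 kept theirs in all 28 values under the pseudocounts, centring and rescaling. This was fixed in advance and is no support, because a pseudocount cannot change a direction. Centring and rescaling shifted the ratios too little to change one. Of the 28 values 4 moved by 0.1 or more. MEST was at 0.92 with a pseudocount of 5 FPKM, under 2-fold. The depth is unknown, so the precision of values near 0, such as GRB10 in control, is unknown too.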

Other observations

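Genes that keep imprints in place were measured as well. Of 18 such genes 13 reached 1 FPKM, and 0 of the 13 were past 2-fold on the log2(FPKM + 1) scale, against 13.5% of all genes, a share that would give few among 13. DNMT1, which copies DNA methylation to new DNA, had 24.6 FPKM in control against 47.4 FPKM in FZR1 ko (log2 ratio 0.92), and UHRF1, which brings it to new DNA, 23.6 and 45.5 FPKM (0.92). DNMT3A, which adds new methylation, stayed under 1 FPKM, at 0.11 and 0.63 FPKM, and DNMT3B had 6.90 and 11.9 FPKM. TRIM28, the co-repressor at imprinted control regions, had 297 and 202 FPKM (-0.55). The histone methyltransferases EHMT2 and SETDB1 had log2 ratios of 0.63 and 0.44. ZNF445, a zinc finger protein that binds imprinted control regions, had 5.87 and 4.97 FPKM, and ZFP57, which does the same, was listed at 0 in both. CTCF, the insulator protein of the H19 control region, had 13.3 and 15.9 FPKM. Of the 13 genes 11 were higher in FZR1 ko, with a median of 0.40. Most of them span over 30 kb, and protein-coding genes from 30 to 100 kb had a median of 0.13 and those from 100 to 300 kb 0.63. The part of span in these values was not tested.

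The transcript that starts at SNRPN also hosts small nucleolar RNAs. Of 18 SNORD116 copies with a value, 10 were higher and 7 lower in FZR1 ko, and their summed level was 1.98 FPKM in control against 11.9 FPKM in FZR1 ko. Groups of copies had equal values, and reads cannot be told apart among near-identical genes, so single copies are uncertain. SNORD64 was listed at 0 in control and had 1.39 FPKM in FZR1 ko, and SNORD108 had 0.47 and 1.27 FPKM. SNORD107 had 0.25 FPKM in control only, and SNORD109A and SNORD109B were listed at 0 in both. Among all 267 small nucleolar RNA genes with a value, 111 were higher and 139 lower in FZR1 ko, and among the 220 that reached 1 FPKM 41 were at least 2-fold higher and 41 lower.

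Chromosome 7, which holds GRB10, MEST and PEG10, had a median log2 ratio of 0.15 over 535 protein-coding genes, the 3rd highest of 23 chromosomes, whose medians ran from -0.38 to 0.21. Chromosome 11, which holds H19, IGF2 and PHLDA2, had 0.04 over 667 genes. Chromosome 14, with MEG3 and DLK1, had 0.04, chromosome 15, with SNRPN, -0.09, and chromosome 19, with PEG3, -0.03.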
